A study of Mus musculus with 2 samples.

Results

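Germline and meiosis genes are the 50 mouse genes described here, a set that covers the piRNA pathway, the synaptonemal complex, meiotic cohesin and recombination, regulators of germ cell RNA and transcription, the X-linked Rhox homeobox cluster and genes of the 2-cell state. A member was read from probe sets that the platform annotation gives exactly 1 gene symbol, equal to the member, and the brightest such probe set by mean signal stood for the gene. That rule found 48 of the 50 members among 18193 genes with a named probe set, and Tdrd6 and Zscan4c had none. The samples were 1 array of control embryoid bodies in differentiation medium alone and 1 array of embryoid bodies given recombinant FGF10 at 100 ng/ml, both formed in hanging drops. Their source was CGR8, a mouse line of embryonic stem cells (strain 129) that had been cultured without feeder cells and with LIF. Embryoid bodies are cell clusters in which such cells start to differentiate, and FGF10 is a secreted fibroblast growth factor. The labels date both samples to day 2, while by the design text they were 2 days old at treatment and RNA followed 24 h later. Both arrays come from 1 cell line and neither group has a second culture, so no test was made and the variation between cultures is unknown, and the comparison asks only how the members differ between this pair of arrays.

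Germ cells make a set of proteins that somatic cells lack: nuage, the perinuclear granule in which piRNAs that silence transposons are made, and the meiotic chromosome axis and synaptonemal complex, along which homologous chromosomes pair and recombine. In embryonic stem cells many of these genes are transcribed at a low level and held back by DNA methylation at CpG-containing promoters and by a variant Polycomb complex that contains MGA, MAX, E2F6, L3MBTL2 and PCGF6. MGA with MAX binds the E-box CACGTG, and E2F6 binds E2F sites that contain GCGGGA. A few of the members, such as Tex19.1, Rhox5 and Sycp3, are also well known as transcripts of pluripotent or extraembryonic cells.

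The 250 bases before the annotated start of 7 members are printed because they hold, or lack, those motifs beside a large or a small difference between the arrays. They are from RefSeq on build GRCm38.p6, 5′ to 3′ on the gene's strand, and end at the base before the start. Capitals mark CACGTG, which reads the same on both strands, and GCGGGA or its reverse complement TCCCGC; no copies overlap in these windows. Mael lies at chr1:166238745-166238994 (minus strand), Ddx4 at chr13:112652311-112652560 (minus strand) and Tex12 at chr9:50561269-50561518 (minus strand). Slc25a31 is at chr3:40708621-40708870 (plus strand), Taf7l at chrX:134476491-134476740 (minus strand), Dazl at chr17:50293621-50293870 (minus strand) and Sycp3 at chr10:88459337-88459586 (plus strand).
Mael: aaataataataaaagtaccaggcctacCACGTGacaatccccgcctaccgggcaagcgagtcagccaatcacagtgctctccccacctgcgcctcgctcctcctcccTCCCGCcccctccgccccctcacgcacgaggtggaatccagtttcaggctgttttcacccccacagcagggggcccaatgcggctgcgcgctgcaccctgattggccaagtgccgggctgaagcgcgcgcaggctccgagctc
Ddx4: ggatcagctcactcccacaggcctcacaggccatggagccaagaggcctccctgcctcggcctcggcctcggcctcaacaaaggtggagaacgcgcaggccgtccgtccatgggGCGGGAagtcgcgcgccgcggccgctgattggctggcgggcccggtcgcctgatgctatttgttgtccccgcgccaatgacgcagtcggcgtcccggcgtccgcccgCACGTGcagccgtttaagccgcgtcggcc
Tex12: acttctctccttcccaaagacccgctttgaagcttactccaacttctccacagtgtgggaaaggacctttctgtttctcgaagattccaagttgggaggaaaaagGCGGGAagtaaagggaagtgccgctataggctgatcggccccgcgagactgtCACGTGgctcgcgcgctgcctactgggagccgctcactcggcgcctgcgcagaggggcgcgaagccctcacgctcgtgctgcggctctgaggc
Slc25a31: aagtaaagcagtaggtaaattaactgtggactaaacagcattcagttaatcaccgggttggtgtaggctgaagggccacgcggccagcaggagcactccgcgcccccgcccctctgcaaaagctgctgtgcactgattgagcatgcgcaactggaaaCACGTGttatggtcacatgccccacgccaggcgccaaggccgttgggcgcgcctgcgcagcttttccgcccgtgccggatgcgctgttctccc
Taf7l: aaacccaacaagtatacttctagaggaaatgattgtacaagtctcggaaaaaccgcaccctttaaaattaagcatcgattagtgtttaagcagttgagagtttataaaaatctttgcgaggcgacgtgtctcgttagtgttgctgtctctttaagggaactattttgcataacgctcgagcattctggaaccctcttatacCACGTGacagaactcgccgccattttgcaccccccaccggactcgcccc
Dazl: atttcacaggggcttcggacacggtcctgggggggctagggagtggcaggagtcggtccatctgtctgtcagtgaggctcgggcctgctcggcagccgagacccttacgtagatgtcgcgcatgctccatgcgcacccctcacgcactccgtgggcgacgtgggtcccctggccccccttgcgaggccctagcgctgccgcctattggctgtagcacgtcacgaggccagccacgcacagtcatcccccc
Sycp3: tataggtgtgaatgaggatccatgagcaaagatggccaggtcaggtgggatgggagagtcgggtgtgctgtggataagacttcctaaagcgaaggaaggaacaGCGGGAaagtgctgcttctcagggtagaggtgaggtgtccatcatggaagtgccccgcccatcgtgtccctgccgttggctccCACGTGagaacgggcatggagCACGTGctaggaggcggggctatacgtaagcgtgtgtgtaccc

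CACGTG began at position -223 in the window of Mael, -29 in Ddx4, -93 in both Tex12 and Slc25a31, -49 in Taf7l, and -64 and -43 in Sycp3, counted back from the start. Dazl held neither motif. Over the 39 members with an entry in the promoter table, 16 (41.0%) held CACGTG, against 6.86% of all 27025 genes in the table and 10.8% of the 10871 genes with at least 10 CpG in the window. GCGGGA was in 13 members (33.3%), against 18.8% of all genes and 39.7% of those with at least 10 CpG. The median was 15 CpG a window in the members, from 1 in Usp17la upward except for 1 start of Piwil4 with 0, and 6 in all genes. A gene with several starts, as 6 members have, was counted once if any of its windows held the motif. These are matches of letters, given as a description.

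On the arrays, members such as Mael, Slc25a31, Rnf17, Usp17la and Rhox5 were lower with FGF10, and others, such as Sycp3 and Tdrkh, were nearly even. Ratios below are log2 of FGF10 over control, less the median over all probe sets kept, so 0 means no difference from the rest of the array, and -1 is 2-fold lower. Each signal is a MAS5 value, a relative brightness in arbitrary units that cannot be set against another gene's. The signal filter was 76.35, the median over all probe sets of the mean of both arrays, and 25 members were above it and 23 below. On the control array 21 of the 48 members lay under that array's median of 75.7, and on the FGF10 array 29 lay under its median of 77.9. Of those, 21 were under it on both arrays, 8 were above it on the control array alone, 0 on the FGF10 array alone, and 19 on both.

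Of the 25 members above the filter, 15 were at least 1.5-fold lower and 1, Dmrt1, was at least 1.5-fold higher. Among all 11122 genes above the filter, 4.86% were that much lower and 5.41% that much higher. At 2-fold the members had 11 lower and 0 higher, against 1.29% and 1.32% of all genes. The members' median log2 ratio was -0.84, and that of all genes was -0.027. Of the 15, 6 (Tex12, Taf7l, Dazl, Boll, Stk31 and Asz1) had an FGF10 signal under the filter and passed it only through the control array. With the filter required on both arrays, 9 of 20 members were 1.5-fold lower, against 3.62% of all genes, and the median was -0.43. A ratio below 0 was found in 21 of the 25 members and in 5951 of the 11122 genes. The members were proposed with results of these arrays known, and 8 of them (Tex12, Usp17la, Slc25a31, Taf7l, Mael, Dazl, Rhox5 and Ddx4) had already been reported as lower. The other 17 had 7 lower and 1 higher at 1.5-fold, with a median of -0.33, so the first counts describe a set that was partly picked for its direction. Of those 7, Boll, Stk31 and Asz1 passed the filter only through the control array.

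**Figure D1:**
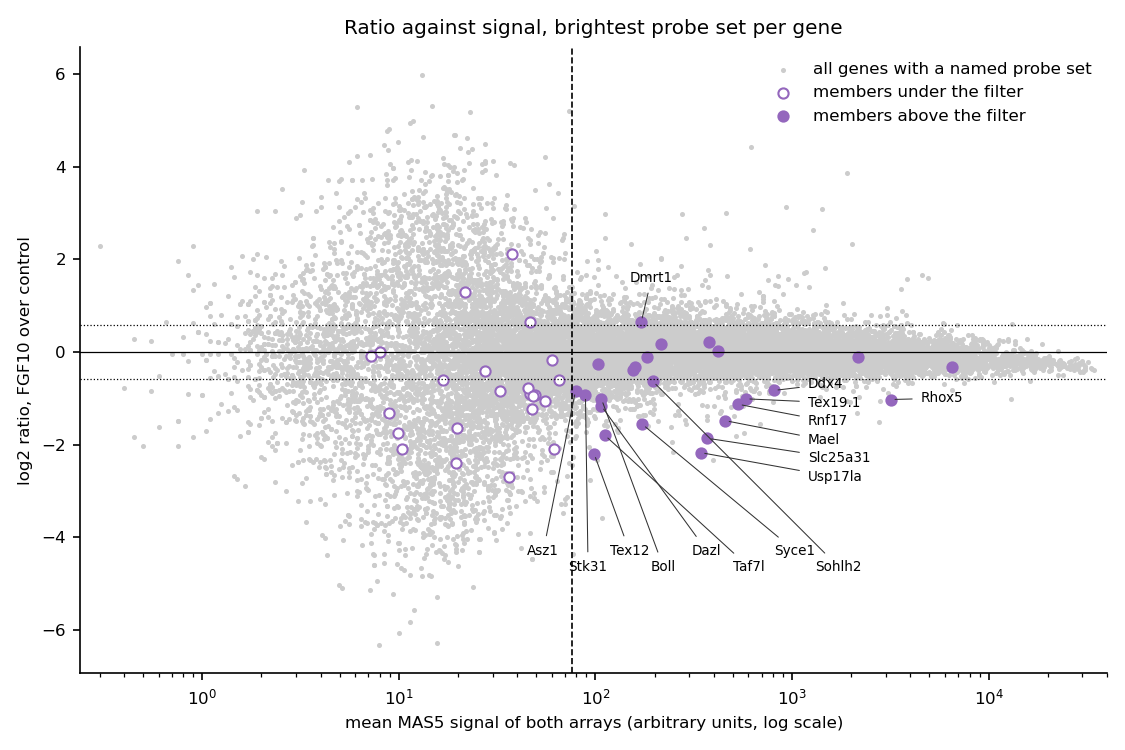
Log2 ratio of FGF10 over control (y axis) against the mean MAS5 signal of both arrays (x axis, log scale), 1 point per gene. Grey points are all genes with a named probe set, filled purple points the 25 members above the signal filter of 76.35 (dashed line) and open ones the 23 under it; dotted lines mark 1.5-fold. The named members are the 16 past 1.5-fold, 15 below the lower line and Dmrt1 above the upper one.

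How far a ratio can be trusted depends on brightness. The technical SD, taken from the difference between the 2 brightest probe sets of 1 gene, was 0.33 over 2743 dimmer genes and 0.17 over 2470 brighter ones. Those genes were split at a signal of 444.1 on the second brightest probe set, while the members below were split on their brightest. The SD covers error within these arrays only. In the 18 members between the filter and 444.1, 10 were 1.5-fold lower and 1 higher, against 9.42% and 8.98% of 4501 genes of that brightness. Of the 10, Tex12, Taf7l, Dazl, Boll, Stk31 and Asz1 passed the filter only through the control array. Tex12, Taf7l, Dazl, Usp17la and Slc25a31 were among those already reported as lower. In the 7 members above 444.1, 5 were lower (Rhox5, Ddx4, Tex19.1, Rnf17 and Mael) and 0 higher, against 1.75% and 2.99% of 6621 genes, and Syce2 and Sycp3 were within 1.5-fold. The split of the members used the mean of both arrays. Mael, Rnf17 and Tex19.1 had an FGF10 signal under 444.1 and reached the brighter group only through the control array. Rhox5, Ddx4 and Mael were among those already reported as lower.

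The genes of the piRNA pathway and nuage gave the most measured members. Of 9 above the filter, 6 were lower by at least 1.5-fold, 0 were higher, and the median was -0.84, beside 4.86% and 5.41% of all genes. Of the 6, Stk31 and Asz1 passed the filter only through the control array, and Mael and Ddx4 were among those already reported. Mael, which encodes Maelstrom, a nuage protein needed for transposon silencing, had signals of 668.4 in the control and 244.6 with FGF10, 2.80-fold lower (-1.48). Ddx4, the germ cell RNA helicase also called Vasa, had signals of 1026.3 and 590.3 (-0.83). Rnf17, a Tudor-domain protein of germ granules, had signals of 724.3 and 338.7 (-1.13) on its brightest probe set. For these genes the FGF10 signal was still well above the filter.

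Tex19.1, a gene of germ cells, pluripotent cells and placenta that restrains retrotransposons, had signals of 771.5 and 391.5, 2.02-fold lower (-1.01). Stk31, another Tudor-domain protein, had signals of 115.8 and 62.0 (-0.94), and Asz1, a mitochondrial scaffold of the piRNA machinery, had 100.7 and 57.6 (-0.84). The FGF10 signal of both lay under the filter, so the size of their ratios is not known; with signals under 76.35 raised to it they were at -0.64 and -0.43, the latter within 1.5-fold. The other measured members of the pathway were closer to even. Tdrd5, a Tudor-domain protein, had signals of 173.6 and 136.1 (-0.39), the helicase gene Mov10l1 had 111.4 and 94.7 (-0.27), and Tdrkh, which anchors piRNA trimming at mitochondria, had 414.3 and 427.4 (0.011). The Piwi genes themselves, whose proteins carry the piRNAs, were all under the filter, Piwil1 at 32.6 and 6.3, Piwil2 at 62.9 and 33.5 and Piwil4 at 30.8 and 23.8.

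The synaptonemal complex split between genes that were much lower and genes that were nearly even. Tex12 and Syce1 encode proteins of the central element, the middle layer of the complex. Tex12 had signals of 160.8 and 35.9 (-2.20), or -1.11 with the FGF10 signal raised to the filter. Syce1 had signals of 256.9 and 89.1, 2.95-fold lower (-1.56). Syce2, which encodes the partner of TEX12 in the central element, had 7186.6 and 5872.2 (-0.33), and Sycp3, the main protein of the chromosome axis, had 2224.5 and 2119.5 (-0.10). So Syce2 and Sycp3 differed by less than 1.5-fold between the arrays, and Tex12 and Syce1 by more than 2-fold. Sycp1, Sycp2, Hormad1 and Hormad2 were under the filter.

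Meiotic cohesin and recombination genes showed no difference of 1.5-fold among those that could be read. Rec8, the meiotic kleisin, had signals of 200 and 231.6 (0.18), and Stag3, its partner subunit, had 188.2 and 177.6 (-0.12). Dmc1, the meiotic strand-exchange recombinase, had 174.4 and 141.9 (-0.33), with -0.15 on its other probe set. Tex15, needed for repair of meiotic breaks, had 344.6 and 410.2 (0.22). Smc1b, Spo11, Msh4, Msh5, Mei1 and Tex11 were under the filter.

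**Figure D2:**
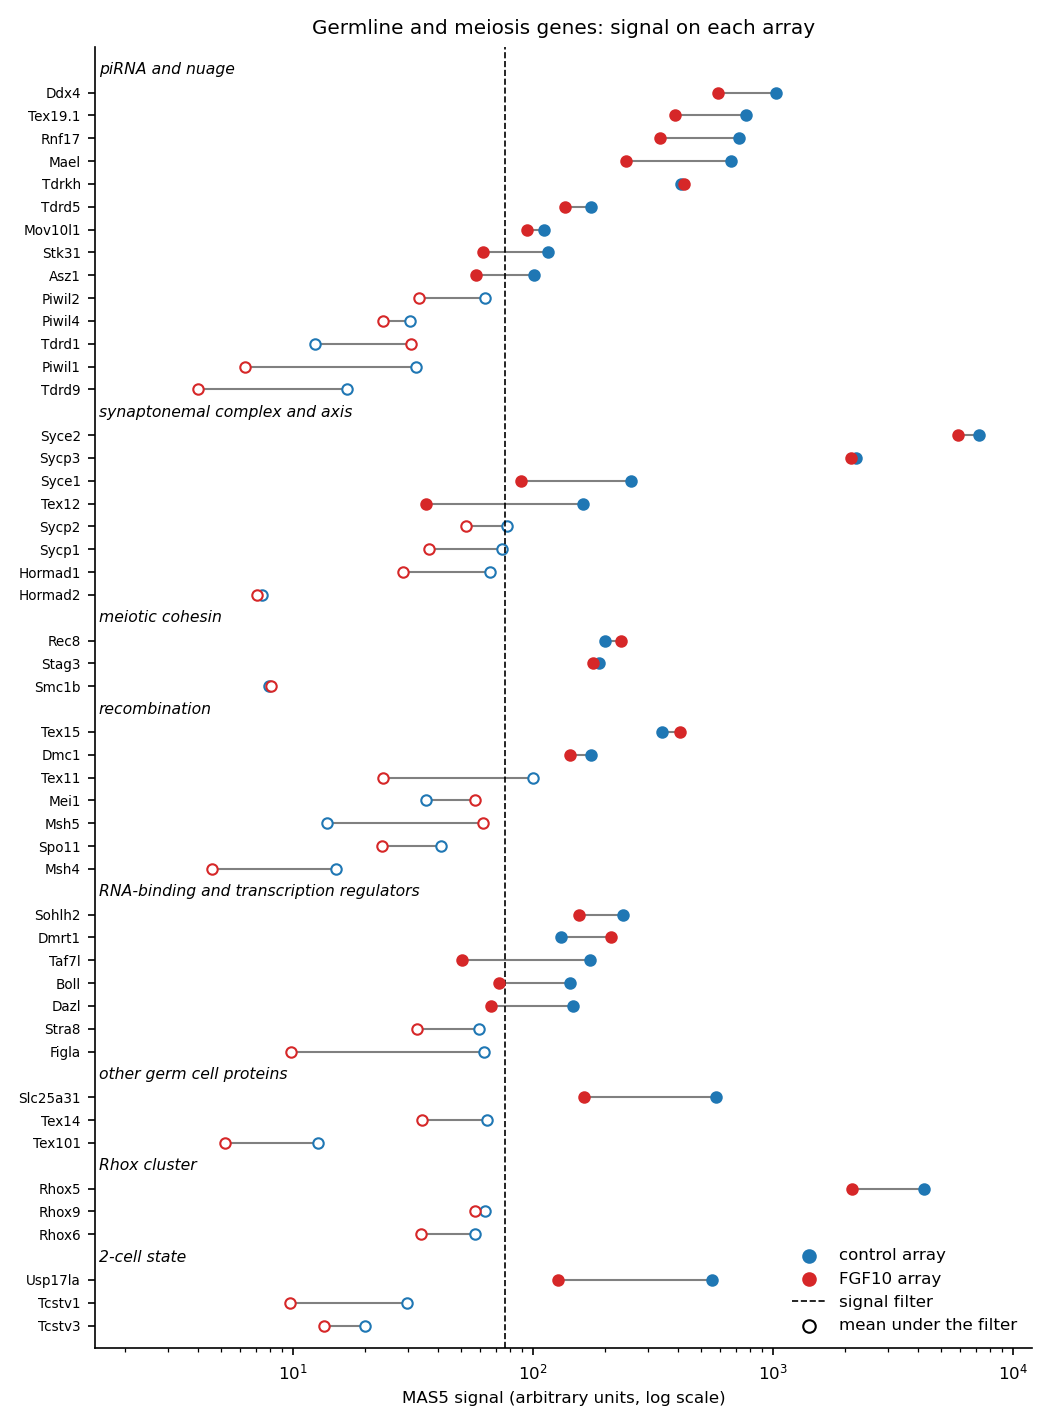
MAS5 signal of the 48 members (x axis, arbitrary units on a log scale), control in blue and FGF10 in red, 1 row per gene, in groups by role. Open symbols are members whose mean signal is under the filter of 76.35 (dashed line). The red symbol lies to the left for Mael (668.4 and 244.6) and Slc25a31 (579.8 and 162.9), while the pair nearly coincide for Sycp3 (2224.5 and 2119.5) and Tdrkh (414.3 and 427.4).

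Among regulators of germ cell RNA and transcription, 4 of 5 measured members were 1.5-fold lower and 1 was higher, beside 4.86% and 5.41% of all genes. Taf7l, Dazl and Boll passed the filter only through the control array. Taf7l, an X-linked paralogue of a TFIID subunit used in spermatogenesis, had signals of 172.3 and 50.7 (-1.80), or -1.21 with the FGF10 signal raised to the filter. Dazl, an RNA-binding protein that controls translation in germ cells, had 146.8 and 67.1 (-1.16), or -0.98 when raised. Its relative Boll had 142.3 and 72.1 (-1.02), or -0.93 when raised. Sohlh2, a bHLH transcription factor of spermatogonia and oocytes, had 236.2 and 155.6 (-0.64), close to the 1.5-fold line. Dmrt1, a DM-domain transcription factor that maintains male gonadal fate, was the exception, with 131.3 and 210.6 (0.65, 1.57-fold higher), a ratio that passed 1.5-fold narrowly and on 1 probe set.

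The remaining readable members, Slc25a31, Usp17la and Rhox5, were at least 1.5-fold lower, beside 4.86% of all genes. All 3 were among those already reported as lower, so their shared direction was known when they were chosen. Slc25a31, the ADP/ATP carrier of the testis also called Ant4, had signals of 579.8 and 162.9, 3.64-fold lower (-1.87). Usp17la, a deubiquitinase gene, had 558.7 and 126.7, 4.52-fold lower (-2.17). Rhox5, the founding gene of the X-linked Rhox cluster, had 4236.8 and 2127 (-1.03), with both signals far above the filter. In these 3 genes the FGF10 signal was also above the filter, so the ratios are not set by it. Rhox6 and Rhox9 were under the filter, as were Tcstv1 and Tcstv3 of the 2-cell state, so that state was read by Usp17la alone among the members. Of 28 other genes listed for that state, 9 had a named probe set, and only Eif1ad (-0.064) and Zfp809 (-0.053) were above the filter. Both were even, but whether either marks the state was not tested, so they give no reading of it.

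Members with more than 1 probe set give the only second reading on these arrays, and 8 of the 48 have one. Both probe sets of Stk31 were lower (-0.94 and -1.11), and so were both of Dazl (-1.16 and -0.47), the second of them within 1.5-fold. The FGF10 signal was under the filter on both probe sets of Stk31 (62 and 51.7) and on the brightest of Dazl (67.1). The size of those ratios is therefore not known. Boll was at -1.02 on the brightest of its probe sets and between -0.54 and -0.29 on the other 3, each under the filter. Rnf17 was at -1.13, -0.92, -0.45 and 0.11, in which the last, with signals of 82.5 and 91.1, had the opposite sign. Asz1 was at -0.84, and its other probe set was far under the filter at 26.4 and 6 (-2.17). Msh5, under the filter on both, was at 2.12 and -0.62. The other 10 of the 15 lower members were read by a single probe set, so no second reading exists for Mael, Ddx4, Tex12, Slc25a31, Taf7l, Usp17la, Rhox5, Syce1, Sohlh2 or Tex19.1.

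**Figure D3:**
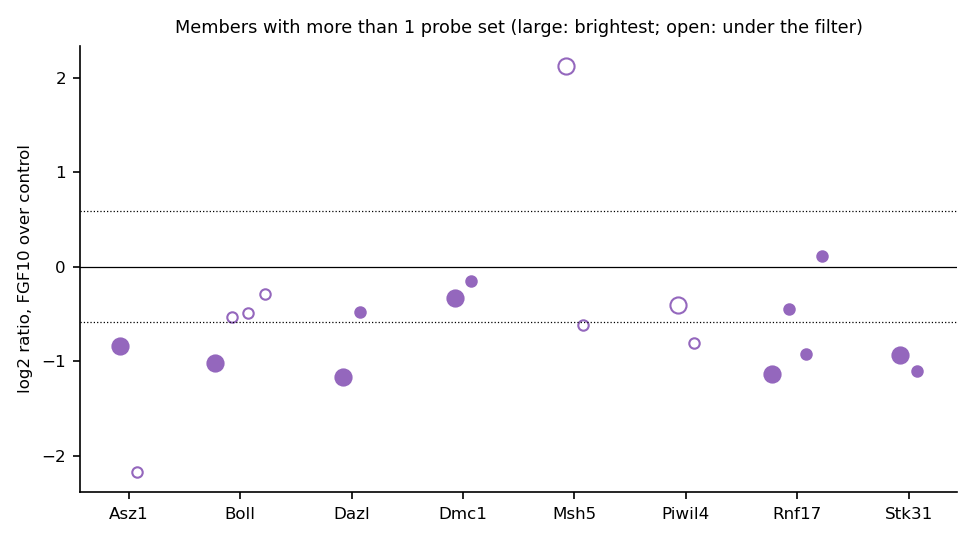
Log2 ratio of FGF10 over control (y axis) for every probe set of the 8 members that have more than 1 (x axis). Large symbols are the brightest probe set of the gene, open symbols have a mean signal under the filter, and dotted lines mark 1.5-fold. Stk31 has both below the lower line (-0.94 and -1.11), with both FGF10 signals under the filter, whereas Rnf17 runs from -1.13 to 0.11.

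Members under the filter had ratios that background could set, and they are given as counts. Of the 23, 16 were 1.5-fold lower and 3 higher, while among all 7071 genes under the filter 34.2% were lower and 26.0% higher. Their median was -0.90, against -0.16 for all such genes. Values ran from -2.71 for Figla, an oocyte transcription factor (62.7 and 9.8), to 2.12 for Msh5 (13.8 and 61.6), and the higher ones besides Msh5 were Tdrd1 (12.3 and 31.1) and Mei1 (35.7 and 57.2). Stra8, which the retinoic acid signal induces at entry into meiosis, had 59.7 and 32.7. Tdrd9 (16.7 and 4), Tex14 (64.3 and 34.5) and Tex101 (12.7 and 5.2) were also among the 23. Tex11, an X-linked gene of crossover formation, had 99.5 and 23.7, and Sycp2 had 78.0 and 52.3; the other 21 were under 76.35 on both arrays. With signals raised to the filter, 0 of the 23 passed 1.5-fold in either direction. The filter fell between Asz1, with a mean signal of 79.15, and Sycp2, with 65.15.

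Germ cell genes outside the member list were mostly even. Of 16 other piRNA and germ granule genes above the filter, 2 were lower by 1.5-fold, 0 were higher, and the median was -0.097. Those were Gpat2, a mitochondrial acyltransferase homologue of the piRNA pathway (235.3 and 92, -1.39), and the kinesin gene Kif17 (140.9 and 71.3, -1.02 on the brightest of its probe sets and nearest to 0 at -0.14). Of 13 other meiosis genes, Meioc, which stabilises the meiotic programme, was 1.5-fold lower (913.2 and 584.1, -0.68) and 0 were higher, with a median of -0.28. The only other Rhox gene with a named probe set, Rhox13, had 277.2 and 121.2 (-1.23). Of 5 oocyte genes above the filter, Nlrp14 (-1.30) and Ooep (-0.97) were lower and Gdf9 (1.01) and Khdc3 (0.59) higher. Nlrp14 passed the filter only through the control array, and Gdf9 and Khdc3 only through the FGF10 array. Of 21 spermatid genes with a named probe set only Ldhc passed the filter (89 and 75.2, -0.27), so late markers of sperm formation were not read. In all, 3 of these 29 piRNA and meiosis genes were lower, beside the 4.86% of all genes and the 7 of 17 members not already reported. Among those 7, Boll, Stk31 and Asz1 passed the filter only through the control array, as did Kif17 among the 3. The member list was chosen with these results known, so its larger share is partly fixed by that choice.

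Genes listed as repressors of germline genes, and then as activators or methylation-state genes, were set beside the members. Whether any of them acts on the members was not tested. The list of the Polycomb variant and other repressors of germline genes had 28 genes above the filter. Of these, 0 were 1.5-fold lower and 1 was higher, with a median of 0.059, beside 4.86% lower and 5.41% higher among all genes. The higher one was Max, the partner of MGA at the E-box, with signals of 422.4 and 1000.1, 2.31-fold higher (1.21) on its only probe set. Several other subunits were near even: Mga at 0.090, E2f6 at 0.062, L3mbtl2 at 0.14 and Pcgf6 at -0.32. Cbx3, a heterochromatin protein of the complex, was under the filter, with signals of 74.6 and 36.2 (-1.08). The DNA methyltransferase genes Dnmt3a (-0.52), Dnmt3b (-0.50) and the chromatin remodeller gene Hells (-0.56) were below 0 but within 1.5-fold, and the maintenance enzyme gene Dnmt1 was at 0.10. Probe sets disagreed in sign for Mga (-1.95 to 0.094), Pcgf6 (-0.32 to 0.34) and Dnmt3a (-0.52 to 0.53).

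A mixed list of activators and methylation-state genes, which also holds Max, had 11 genes above the filter. Of these, 5 were lower and 1, Max again, higher, beside 4.86% and 5.41% of all genes. Dppa2 (4084.7 and 1474.4, -1.50) and Dppa4 (-0.97) encode paired chromatin factors of pluripotent cells, Dnmt3l (550.5 and 252.7, -1.16) encodes a cofactor of de novo methylation, and Zfp42 (-0.71) and Nr5a2 (-1.01) encode pluripotency factors. Nr5a2 (114.9 and 58.3) passed the filter only through the control array, with -2.41 to -0.29 over its probe sets. The demethylation enzyme gene Tet1 was at 0.10, with -0.35 to 1.35 over its probe sets. Among primordial germ cell specification genes, 4 of 12 were lower and 1 higher, beside the same shares of all genes. The lower ones were Fgf4 (-1.56), Dppa3 (-1.07), Ifitm3 (-0.63) and Ifitm1 (-0.62), against Tfap2c (1.66).

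Markers of other cell states differed between the arrays as well. Each count here is to be set beside the 4.86% of all genes above the filter that were 1.5-fold lower and the 5.41% higher. All 16 pluripotency markers were above the filter, as the label of stem cell embryoid bodies implies, and 3 were 1.5-fold lower (Dppa5a, Utf1 and Zfp42) and 0 higher; the summed signal of the list was 69128.4 in the control and 61727.4 with FGF10, or 51940.2 and 53078.7 without Dppa5a. Primitive streak markers were higher in 11 of 11 genes above the filter, with summed signals of 3835.8 and 18093.9. Of these, Cer1 (60.6 and 490.7) passed the filter only through the FGF10 array. T, also on that list, had no named probe set. Visceral endoderm markers were lower in 5 of 12 and higher in 2, with 13580.8 and 10176.9. Feeder fibroblast markers passed the filter in 4 of 10, with 1 lower and 1 higher. The higher one, Pdgfrb (36.4 and 145.6), passed it only through the FGF10 array. The sums of the feeder markers, over all 10 genes with those under the filter included, were 1303.2 and 1340.3. Markers of Sertoli, Leydig and granulosa cells, the somatic cells of the gonad, passed it in 6 of 12, with 3 lower and 0 higher. Their sums, over all 12 genes in the same way, were 1078.9 and 770.9. Signals of different genes do not share a scale, so every sum in this paragraph is weighted towards the brightest probe sets. The part of these states in the members' ratios was not tested, and in RNA from whole embryoid bodies fewer cells of a type and less RNA per cell cannot be told apart.

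**Figure D4:**
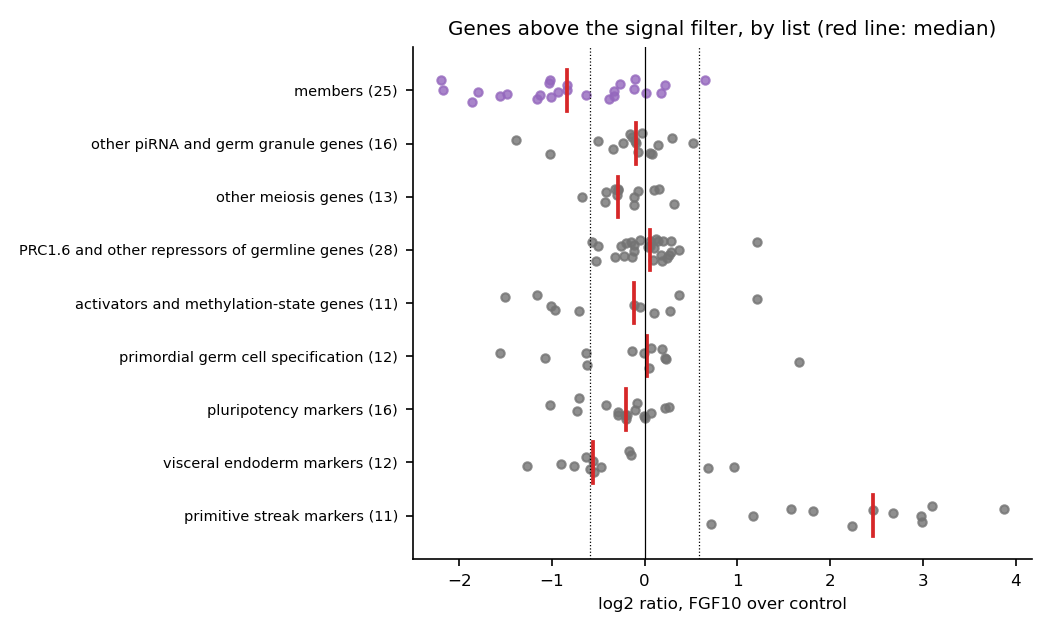
Log2 ratio of FGF10 over control (x axis) of genes above the signal filter, 1 point per gene, for the members and 8 other lists, with the number of genes in parentheses. Points are spread vertically only to separate them; red lines are medians and dotted lines mark 1.5-fold. The members' median is -0.84, that of the repressors 0.059, and all 11 streak markers lie to the right of 0.

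The promoter motifs were also set against the ratios. CACGTG was in 7 of the 14 lower members with an entry (50%) and in 4 of the 8 measured members that were not lower (50%), as well as in 5 of 16 under the filter (31.3%). GCGGGA was in 4 of the same 14 (28.6%), 5 of the same 8 (62.5%) and 4 of the 16 (25%). Sycp3, which holds 2 copies of CACGTG and 1 of GCGGGA, was nearly even, as were Stag3 and Mov10l1, which hold 1 CACGTG each. Dazl, Asz1, Sohlh2, Syce1, Rhox5 and Usp17la were lower and hold neither motif in this window. Among the 410 other genes that were 1.5-fold lower and have an entry, 9.02% held CACGTG, against 10.3% of all 9047 genes above the filter. Of 43 other piRNA and meiosis genes 2 held it (4.65%), a share below that of the members.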

How the data were processed

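Total RNA from 1 control and 1 FGF10 sample was hybridised to 1 Affymetrix array each; groups come from the sample titles. The deposited intensity values are MAS5 signals, per the submitters' processing notes, and the values are linear, with version, settings and genome build not given in the sources used here. MAS5 scales each array to a common target and makes dim values noisy. The 64 chip controls were left out; of 45037 other probe sets, 34945 had 1 symbol, 932 several and 9160 none, and only the first were named. Ratios were log2 of FGF10 over control, with no offset, less 0.034, the median over probe sets at or above the filter. Python 3.11.15, pandas 2.3.3 and statsmodels 0.14.6 were used, and the procedure was tested on simulated data. With 1 array per group, which limits the precision, no test was made: counts past 1.5-fold and 2-fold are set beside all genes. Members and lists were chosen with earlier results of these data known. All 50 members are accounted for, and of each list up to 4 genes above the filter with the largest ratios past 1.5-fold are named, with any repressor, activator or marker gene set beside a result; genes named beyond that were chosen after their values were seen. Members were left out of the other lists. The alternatives tried are given in the closing section.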

Additional observations from a re-analysis of the deposited data

How the results depend on the processing

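With 25 members read (24 without _x_at and _s_at probe sets), the count of members 1.5-fold lower and the median stayed close to the main values (15 lower at 1.5-fold, median -0.84) after no centring, quantile or loess normalization, an offset, signals raised to the filter, the mean over probe sets, the second brightest probe set or without _x_at and _s_at probe sets, where 13 to 15 were lower and the median ran from -0.87 to -0.64. At 2-fold, where the main count was 11, these gave 8 to 10, with 8 under no centring and under the offset. After loess normalization or with an offset at the 25th percentile, 0 members were 1.5-fold higher, since Dmrt1 no longer passed. With no signal filter, 31 of 48 members were 1.5-fold lower and 4 higher, and 19 were 2-fold lower and 2 higher, beside 15.9% of all genes lower. With a filter at the 75th percentile, 5 of 7 were 1.5-fold lower, 0 higher and 2 were 2-fold lower, beside 1.42% of all genes 1.5-fold lower. With the filter required on both arrays, 9 of 20 were 1.5-fold lower, 7 were 2-fold lower and the median was -0.43, beside 3.62% of all genes 1.5-fold lower. That filter drops 5 of the members that were lower, and Dazl is read from its other probe set, at -0.47. Without the 8 members already reported as lower, an alternative chosen after seeing the data, 7 of 17 were 1.5-fold lower, 4 were 2-fold lower and the median was -0.33. Those 7 include Boll, Stk31 and Asz1, which passed the filter only through the control array. No called member changed sign under any of these alternatives in which it was still read. No paired analysis was possible because each group has 1 array.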
